A study of Mus musculus with 16 samples.

Results

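The nuclear genes of the mitochondrial respiratory chain were followed in the skin of iK5-TERT mice in a cohort labelled TERT-off, given doxycycline to silence transgenic TERT, and a cohort labelled TERT-on, given PBS. The members were all probe sets of the array whose gene symbol starts with Nduf, Uqcr, Atp5, Sdha, Sdhb, Sdhc, Sdhd, Cox4, Cox5, Cox6, Cox7 or Cox8. This rule found 185 of 45101 probe sets, which belong to 94 of the 18194 genes that single-symbol probe sets name. A further 10 probe sets carry a member symbol together with another symbol and were left out. Of the 94 genes, 92 passed the filter on low intensity and were tested, and Cox7b2 and Ndufb4 did not pass. By role, 34 genes encode subunits of complex I, 4 of complex II, 8 of complex III, 10 of complex IV and 17 of complex V. Another 8 are isoforms that are limited to certain tissues, and 13 are assembly factors or related proteins.

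All mice carried the transgenes K5tTA and tetop-TERT. The keratin 5 promoter places the transactivator in basal keratinocytes, including those of the outer root sheath, so that transgenic TERT is made in those cells while the RNA came from the whole skin biopsy, with the subcutaneous fat removed. Doxycycline in the drinking water had kept the transgene silent during development, and the follicles of all mice were labelled anagen, the growth phase, at day 60. The TERT-off cohort received doxycycline at 8 µg per g body weight, and the TERT-on cohort received PBS. Biopsies were labelled 0, 6, 12 and 24 h, with 2 biological replicates per cohort and time and 16 arrays in all. The values are linear probe set intensities, and the tests compare their log2 values with limma after Benjamini-Hochberg adjustment over 25563 probe sets. A gene was called at an adjusted p under 0.05 and is represented by its brightest probe set. With 2 replicates per group, p-values measure only the spread among these few samples.

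The respiratory chain passes electrons from NADH through complex I, or from succinate through complex II, to ubiquinone, then through complex III and cytochrome c to complex IV, which reduces oxygen. Complexes I, III and IV pump protons across the inner mitochondrial membrane, and complex V, the ATP synthase, uses the resulting gradient to make ATP. Most subunits are encoded in the nucleus, and the remainder, encoded by mitochondrial DNA, are made on the mitochondrial ribosome. In skin, the proliferating matrix of the growing hair follicle, the sebaceous glands and the thin striated muscle sheet under the dorsal skin are among the compartments that contain mitochondria, and some complex IV subunits have a separate isoform used in striated muscle.

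Facts of the arrays bear on all comparisons. Tert intensity was between 185 and 357 on the 4 arrays at 0 h. From 6 to 24 h it was between 8.32 and 16.1 in TERT-off and between 22.6 and 64.6 in TERT-on. In TERT-on replicate 1 it was 357 at 0 h and 40.4, 64.6 and 22.6 at 6, 12 and 24 h, and in replicate 2 it was 215.7 and then 29.2, 47.8 and 60.1. The TERT-on arrays had thus also lost most of the Tert signal from 6 h on, which goes against their label, although they stayed above all TERT-off arrays of those times. TERT-on and TERT-off are used here as the names of the cohorts. The 5′ signal of Gapdh divided by its 3′ signal was 0.0599 on TERT-on replicate 1 at 0 h and between 0.977 and 1.12 on the other 15 arrays. For 12 keratins of the hair shaft the mean log2 intensity was already 4.33 on TERT-off replicate 1 at 0 h, against 10.73 on TERT-off replicate 2 and 8.76 and 10.10 on the TERT-on arrays. These keratins are made in the growing hair. The mean of 16 cell cycle genes on the same array was 8.36, against 8.29 on TERT-off replicate 2 and 8.59 and 8.43 on the TERT-on arrays. Whether the follicles of TERT-off replicate 1 differed in stage from their anagen label was not tested, and the calls without this replicate are given below. Between 6 and 24 h, 9 of 9 macrophage markers (median log2 difference 1.40) and 6 of 7 neutrophil markers (1.99) were called higher in TERT-off, and 11 of 12 hair shaft keratins (-4.43) and 14 of 16 cell cycle genes (-0.80) lower. The mean log2 intensity of the neutrophil markers was already higher in TERT-off at 0 h, at 5.82 to 6.19 against 4.7 to 5.26. That of the macrophage markers at 0 h was 9.64 and 8.98 in TERT-off and 8.01 and 9.01 in TERT-on. Fewer cells of a type and less RNA per cell cannot be told apart in such biopsies, and the part of these cell types in the values of the respiratory chain genes was not tested.

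Promoter sequence was available in RefSeq (GRCm38.p6) for 78 of the 94 members, and the 250 bases before the transcription start were searched on both strands. The letters searched were GCATGCGC, the core bound by NRF1, CCGGAAG, bound by ETS factors such as GABP, AAGATGGC, bound by YY1, CACGTG, the E-box bound by Myc, and CAGCTG, an E-box bound by myogenic factors. GCATGCGC was found in 8 of 78 members (10.3%) and in 2.56% of all 27025 genes. CCGGAAG was found in 16 members (20.5%) and in 7.83% of all genes. AAGATGGC was found in 1 member (1.28%, against 1.83% of all genes), CACGTG in 6 (7.69%, against 6.86%) and CAGCTG in 6 (7.69%, against 14.7%). These matches are descriptions of the letters in this window.

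The promoters shown are those of the called members that held a match, followed by 2 of the complex IV isoforms used in muscle. Each runs 5′ to 3′ on the strand of its gene, and capitals mark a match on either strand, where CTTCCGG is the reverse complement of CCGGAAG. The capitals of Cox6a1 cover 2 overlapping matches of GCATGCGC and its reverse complement GCGCATGC, and Atp5l holds GCATGCGC, CCGGAAG and CACGTG or their reverse complement.
Ndufa6, chr15:82354292-82354541, minus strand: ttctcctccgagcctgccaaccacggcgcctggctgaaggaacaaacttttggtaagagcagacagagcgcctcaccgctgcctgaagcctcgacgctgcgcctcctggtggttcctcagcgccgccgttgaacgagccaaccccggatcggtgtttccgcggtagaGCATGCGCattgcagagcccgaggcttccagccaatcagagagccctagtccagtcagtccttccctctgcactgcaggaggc
Sdhd, chr9:50603850-50604099, minus strand: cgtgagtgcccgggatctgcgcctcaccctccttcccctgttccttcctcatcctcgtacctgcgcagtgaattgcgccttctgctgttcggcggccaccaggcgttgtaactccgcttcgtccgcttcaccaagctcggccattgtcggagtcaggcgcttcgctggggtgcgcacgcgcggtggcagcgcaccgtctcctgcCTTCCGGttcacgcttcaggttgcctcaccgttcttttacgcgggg
Uqcrh, chr4:116075071-116075320, minus strand: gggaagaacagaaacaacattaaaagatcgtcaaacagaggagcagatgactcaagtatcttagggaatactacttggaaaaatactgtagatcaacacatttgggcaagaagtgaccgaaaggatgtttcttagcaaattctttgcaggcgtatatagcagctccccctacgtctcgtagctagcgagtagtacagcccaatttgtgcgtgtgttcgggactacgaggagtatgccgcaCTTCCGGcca
Cox6a1, chr5:115348959-115349208, minus strand: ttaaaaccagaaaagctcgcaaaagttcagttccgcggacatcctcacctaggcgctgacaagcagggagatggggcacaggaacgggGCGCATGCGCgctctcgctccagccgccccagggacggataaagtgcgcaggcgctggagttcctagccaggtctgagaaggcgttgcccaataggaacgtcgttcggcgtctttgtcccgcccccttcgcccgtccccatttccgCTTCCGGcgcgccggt
Atp5l, chr9:44920743-44920992, minus strand: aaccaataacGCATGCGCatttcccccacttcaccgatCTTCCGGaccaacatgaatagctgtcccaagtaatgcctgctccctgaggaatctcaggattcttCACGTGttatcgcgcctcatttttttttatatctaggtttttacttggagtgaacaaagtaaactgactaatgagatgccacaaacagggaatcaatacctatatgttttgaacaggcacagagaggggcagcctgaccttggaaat
Cox7a1, chr7:30183921-30184170, plus strand: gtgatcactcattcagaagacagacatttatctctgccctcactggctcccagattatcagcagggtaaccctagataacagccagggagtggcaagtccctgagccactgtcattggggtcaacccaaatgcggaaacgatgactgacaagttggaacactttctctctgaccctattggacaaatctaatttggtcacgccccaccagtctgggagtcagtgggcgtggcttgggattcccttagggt
Cox8b, chr7:140900447-140900696, minus strand: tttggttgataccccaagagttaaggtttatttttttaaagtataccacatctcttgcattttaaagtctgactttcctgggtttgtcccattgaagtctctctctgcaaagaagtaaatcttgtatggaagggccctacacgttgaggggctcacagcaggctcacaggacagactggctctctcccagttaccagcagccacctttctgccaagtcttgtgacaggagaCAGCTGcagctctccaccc
Among the 13 called members with a promoter in the table, GCATGCGC was found in 3 and CCGGAAG in 4. Cox7a1 held none of the letters searched, and Cox8b held CAGCTG.

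The first comparison asks how the chain genes differed between the cohorts after injection, over 6, 12 and 24 h with 6 arrays per cohort, at times when Tert was low in both and lower in TERT-off. The 6 arrays of a cohort were read as serial biopsies of 2 mice, so p-values and overlaps of arrays rest on 2 mice against 2. The fit set the correlation between arrays of 1 mouse at 0.0728, so they counted as nearly independent. In TERT-off, 14 of 92 members (15.2%) were called higher and 1 (1.09%) lower. Among all 12580 genes tested, 16.9% were called higher and 12.6% lower, so the share called higher was close to the background and few members were called lower. With arrays centred on their medians 9 members were higher and 4 lower, and after quantile normalization 11 and 5. Over all 12580 genes, 2122 were called higher and 1588 lower with the deposited scaling. Those counts were 1903 and 1959 with centred arrays, and 1945 and 1850 after quantile normalization. The split between the directions thus depends on the scaling, for the members and for all genes. The calls lost with centred arrays were those of Atp5c1, Atp5l, Atp5mpl, Cox6c and Ndufa1, and with quantile normalization those of Atp5c1, Atp5l and Ndufb11. The median log2 difference was 0.09 over the members and 0.04 over all genes. The called differences were small, from 0.14 for Atp5l to 0.55 for Sdhd on the log2 scale, or 1.10-fold to 1.47-fold. Every one of the 15 called genes encodes a subunit of complexes I to V, and no assembly factor or tissue-limited isoform was called. At an unadjusted p under 0.05, 25 members were higher and 7 lower, against 24.8% and 19.1% of all genes. On 13 members all 6 TERT-off arrays lay above all 6 TERT-on arrays (background 6.59%), and on 1, Ndufa8, all lay below (background 4.83%).

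**Figure D1:**
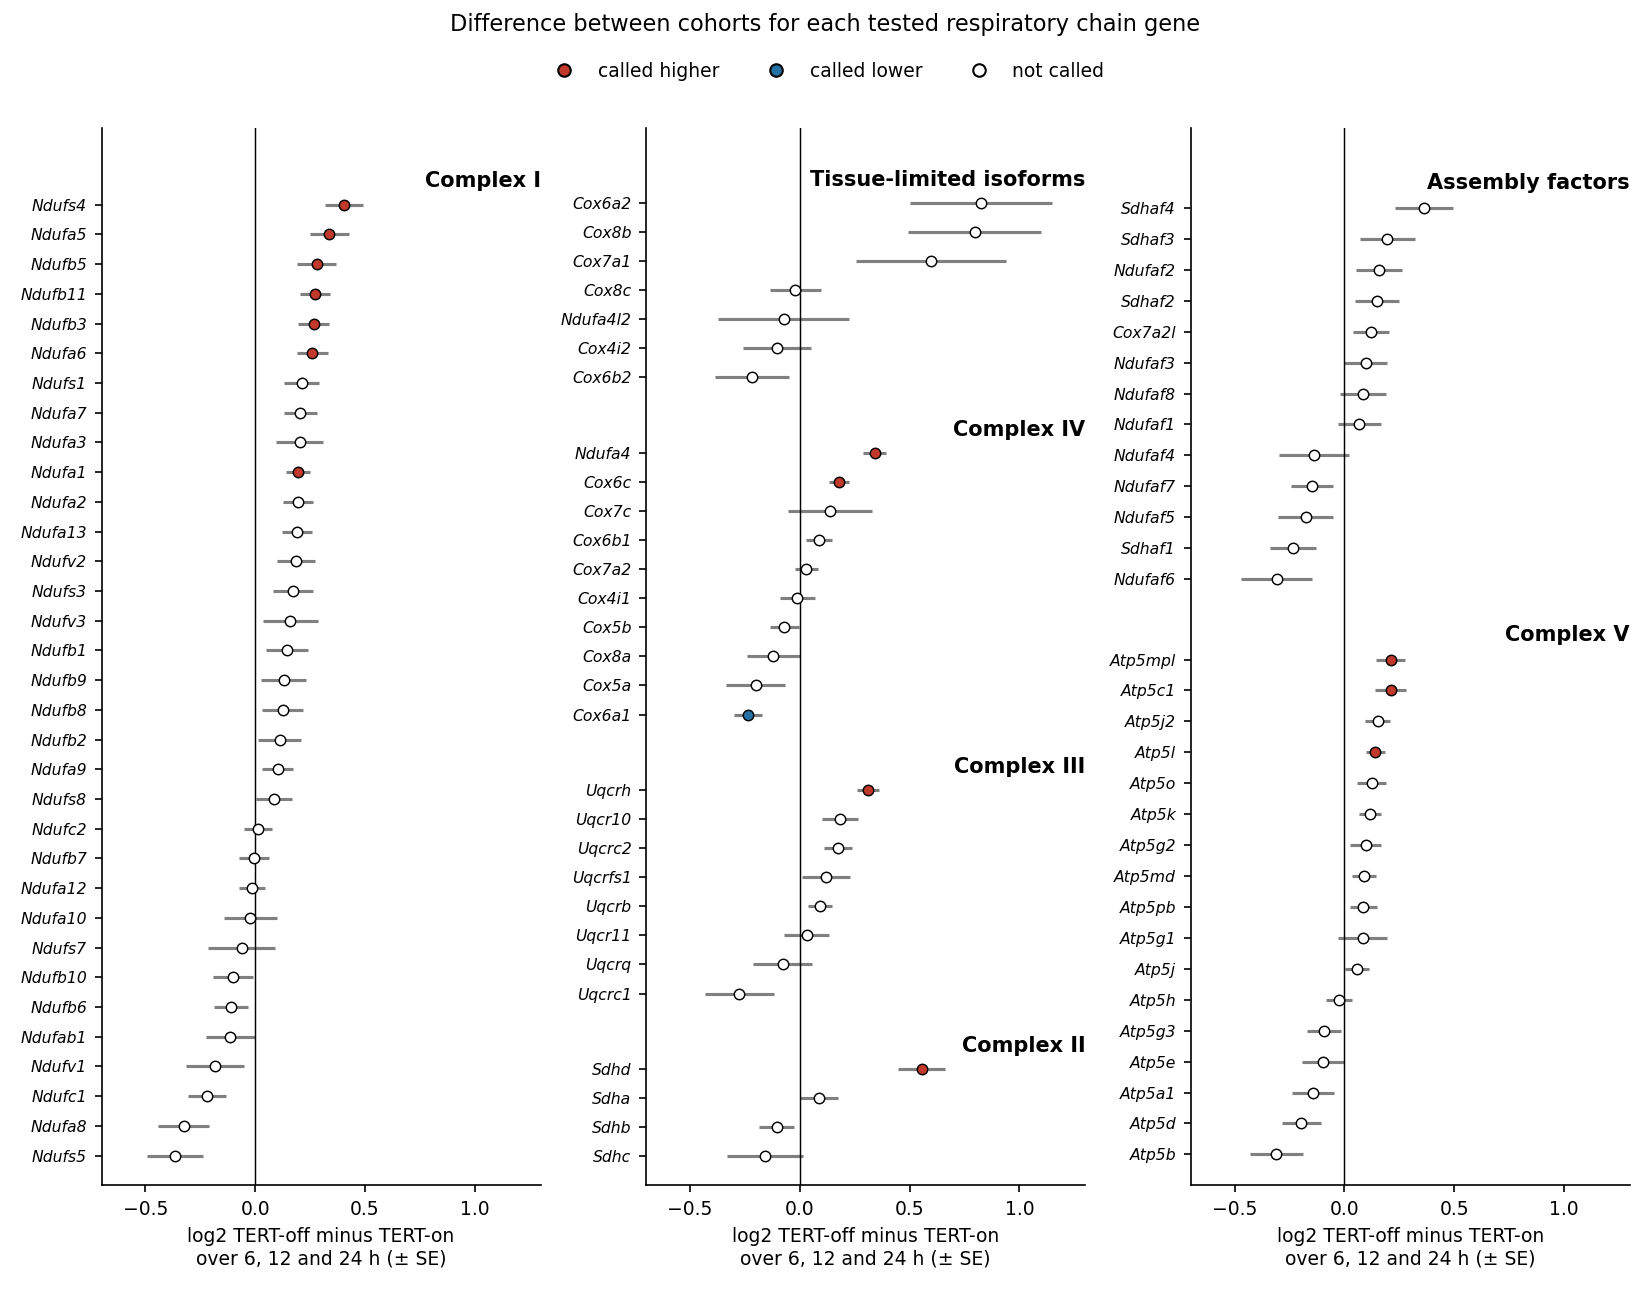
Log2 difference in intensity, TERT-off minus TERT-on over 6, 12 and 24 h, for each of the 92 tested members, as points with bars of 1 SE from limma, grouped by complex or role. Filled points mark the 14 members called higher and Cox6a1, called lower; the 3 points furthest to the right, Cox6a2, Cox8b and Cox7a1, have long bars and were not called.

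Complex I, NADH dehydrogenase, had 7 of its 33 tested subunits called higher and none lower, with a median log2 difference of 0.13 (11 higher and 3 lower at an unadjusted p under 0.05). All 7 are accessory subunits (27 tested), whereas none of the 6 tested core subunits, among them those that carry the flavin and iron-sulfur clusters, was called (1 at an unadjusted p under 0.05). This split was chosen after the values were seen, and the medians of the 27 accessory and 6 core subunits were both 0.13. Ndufs4, an accessory subunit of the NADH-oxidizing arm, had the largest called difference of the complex. Its intensity between 6 and 24 h was 847 to 1013 in TERT-off (median 910) and 610 to 722 in TERT-on (median 700). The groups did not overlap, and the log2 difference was 0.41 (SE 0.09, adjusted p = 0.00795). At 0 h Ndufs4 was 872 and 929 on the TERT-off arrays and 728 and 904 on the TERT-on arrays, so the cohorts overlapped before injection. The other probe sets of Ndufs4 gave 0.37 (adjusted p = 0.136) and 0.25 (adjusted p = 0.142), so the call rests on 1 of 3 probe sets.

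Ndufa5 (0.34), Ndufb5 (0.28), Ndufb11 (0.27), Ndufb3 (0.27), Ndufa6 (0.26) and Ndufa1 (0.20), accessory subunits of complex I, were also called higher, with adjusted p between 0.0144 for Ndufb11 and 0.0377 for Ndufb5. Ndufb11 ranged from 1745 to 2064 in TERT-off and from 1481 to 1623 in TERT-on, and Ndufb3 from 1275 to 1655 against 1119 to 1181. For Ndufa5 and Ndufa6 the arrays of the cohorts overlapped. Ndufs1, the largest core subunit, did not overlap either (602 to 724 against 517 to 598) but missed the threshold, with a log2 difference of 0.21 (adjusted p = 0.0702). Ndufv1, the core subunit that binds NADH, was at -0.18 (adjusted p = 0.319). The most negative members of complex I were Ndufs5 at -0.36 (adjusted p = 0.0554) and Ndufa8 at -0.33 (adjusted p = 0.0553), both accessory subunits and neither called. Ndufs5 was 749 to 927 in TERT-off and 908 to 1197 in TERT-on, and it was already lower in TERT-off at 0 h, at 693 and 939 against 975 and 1413.

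Complex II, succinate dehydrogenase, is shared with the tricarboxylic acid cycle and has 4 genes. Sdhd, a membrane anchor subunit, was the member with the largest called difference in any complex. Its intensity on TERT-off replicate 1 was 573, 670 and 699 at 6, 12 and 24 h, and on TERT-off replicate 2 it was 513, 766 and 730. On TERT-on replicate 1 it was 398, 459 and 532, and on TERT-on replicate 2 it was 438, 434 and 416. Only the lowest TERT-off array lay below the highest TERT-on array, and the log2 difference was 0.55 (SE 0.11, adjusted p = 0.00615). The second probe set of Sdhd gave 0.16 (SE 0.15, adjusted p = 0.457), so the call rests on 1 of 2 probe sets. Sdha, the flavoprotein, was at 0.09, Sdhb, the iron-sulfur subunit, at -0.11, and Sdhc, the other anchor, at -0.16, all not called. The median over the 4 genes was -0.01 and ranged from -0.08 to 0.06 when 1 replicate of a cohort was left out.

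In complex III, ubiquinol-cytochrome c reductase, 1 of 8 genes was called higher and none lower, with a median of 0.11 (3 higher and 0 lower at an unadjusted p under 0.05). The median ranged from 0.063 without TERT-off replicate 2 to 0.137 without TERT-off replicate 1. Uqcrh, the hinge protein near cytochrome c1, ranged from 2365 to 2790 in TERT-off (median 2480) and from 1941 to 2162 in TERT-on (median 1992). The log2 difference was 0.31 (SE 0.05, adjusted p = 0.00383), with all TERT-off arrays above all TERT-on arrays. Uqcrfs1, the Rieske iron-sulfur protein, was at 0.12 and Uqcrc1, a core protein, at -0.28 (adjusted p = 0.214), neither called. Uqcrc1 was 719 on TERT-off replicate 1 at 0 h and between 1021 and 1758 on all other arrays.

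In complex IV, cytochrome c oxidase, Ndufa4 and Cox6c were called higher and Cox6a1 lower, out of 10 genes. Ndufa4, once counted with complex I and now placed in complex IV, ranged from 2489 to 2931 in TERT-off (median 2735) and from 2085 to 2228 in TERT-on (median 2141). Its difference was 0.34 (SE 0.05, adjusted p = 0.0030), the smallest adjusted p among the members. Cox6c, a small subunit, was at 0.18 (adjusted p = 0.0163) and ranged from 3295 to 3565 against 2894 to 3075. Cox6a1, the common isoform of subunit VIa, ranged from 3724 to 4795 in TERT-off (median 4369) and from 4572 to 5410 in TERT-on (median 5146). The cohorts overlapped slightly, and Cox6a1 was the only member called lower, at -0.24 (SE 0.06, adjusted p = 0.0197). Its second probe set gave -0.34 (adjusted p = 0.0763), so the call rests on 1 of 2 probe sets. Cox4i1 (-0.01), Cox5a (-0.20), Cox6b1 (0.09), Cox7a2 (0.03) and Cox8a (-0.12), common subunits of the complex, were not called on their brightest probe set, and the value of Cox7a2 changed sign to -0.002 when arrays were centred on their medians. All 3 probe sets of Cox5a were negative, and one that was not the brightest was called lower (-0.24, adjusted p = 0.0487). The median over the 10 genes was 0.01 and ranged from -0.05 without TERT-off replicate 2 to 0.04 without TERT-off replicate 1.

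In complex V, 3 of 17 genes were called higher and none lower, with a median of 0.09 (5 higher and 2 lower at an unadjusted p under 0.05). The median was 0.051 without TERT-on replicate 2 and 0.056 with arrays centred on their medians. Atp5c1, the central stalk subunit of the catalytic F1 part, was 2074 to 2385 in TERT-off and 1774 to 2227 in TERT-on, with a difference of 0.21 (SE 0.07, adjusted p = 0.0470). Both probe sets of Atp5c1 were called higher. Atp5mpl (0.21, adjusted p = 0.0358) and Atp5l (0.14, adjusted p = 0.0348), small proteins of the membrane part, were the other calls. None of the 3 was called with centred arrays, without the intensity trend, or without TERT-off replicate 2 or either TERT-on replicate. Atp5c1 was also lost after quantile normalization, without the filter, without TERT-off replicate 1 and without the 0 h array of TERT-on replicate 1, Atp5l after quantile normalization and without TERT-off replicate 1, and Atp5mpl without the filter. Atp5a1 and Atp5b, the alpha and beta subunits that form the catalytic ring around the stalk, were at -0.14 (adjusted p = 0.286) and -0.31 (adjusted p = 0.0768), not called. Atp5b was 1985 to 2769 in TERT-off and 2672 to 3022 in TERT-on, and at 0 h it was 1539 and 2660 against 2622 and 2897. Over the 5 F1 genes 1 was positive and 4 were negative, and over the other 12 genes 10 were positive and 2 negative, a split chosen after the values were seen.

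**Figure D2:**
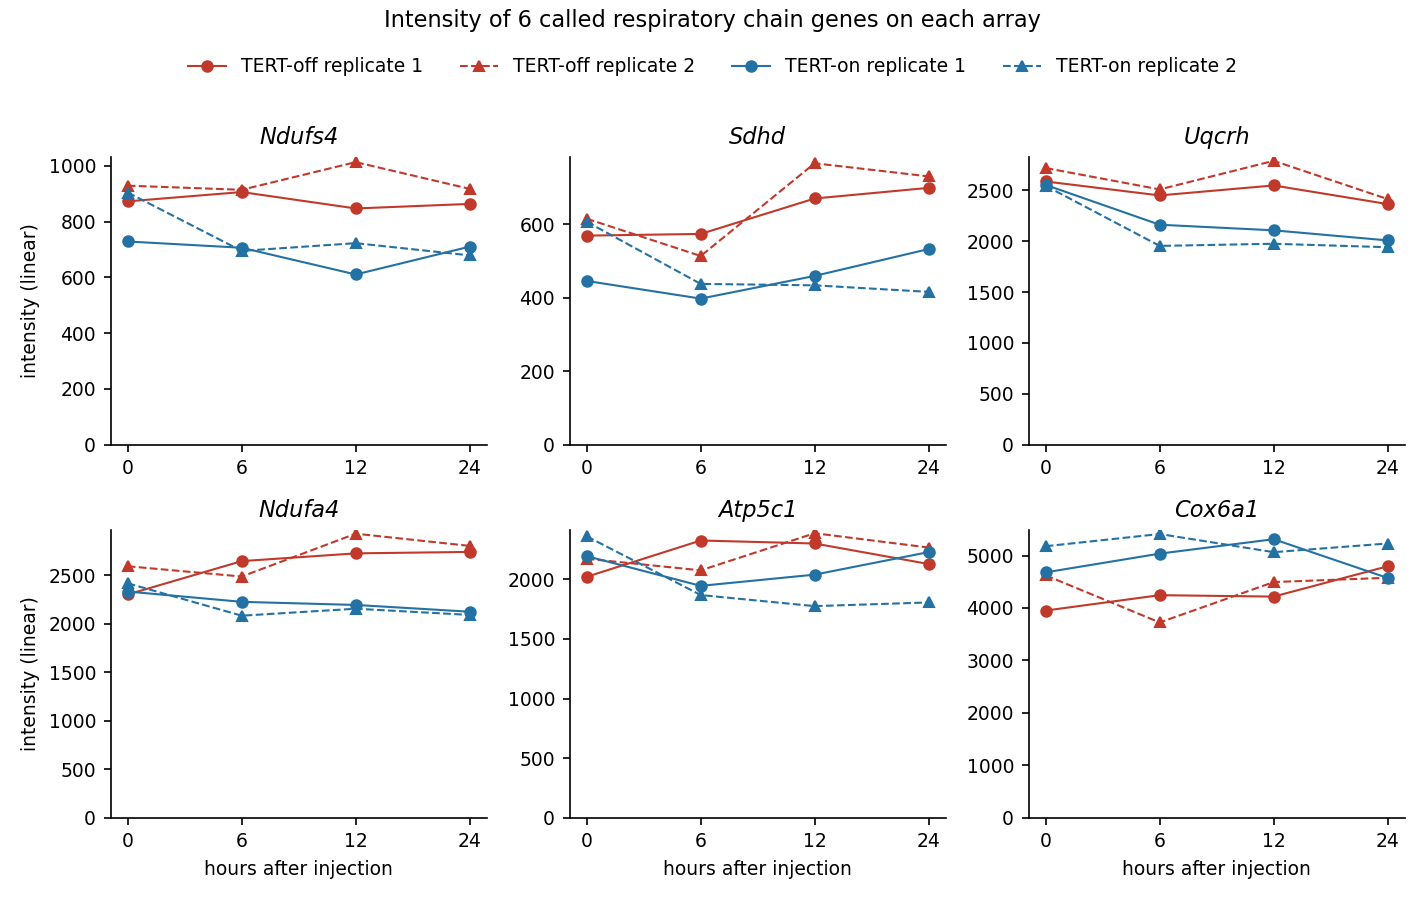
Linear intensity of 6 called members on each of the 16 arrays, by hours after injection, with a line per replicate of each cohort and the vertical axis starting at 0. From 6 h on, both TERT-off lines of Ndufs4, Uqcrh and Ndufa4 lie above both TERT-on lines, and those of Cox6a1 lie mostly below.

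Among the 49 members with more than 1 tested probe set, 42 had the same call on every probe set, 7 (Atp5g2, Atp5j2, Cox5a, Cox6a1, Ndufb5, Ndufs4 and Sdhd) were called on some only, and none had calls in opposite directions. Counted over the 170 tested member probe sets, 22 were higher and 2 lower, against 15.1% and 10.8% of all probe sets. The calls depended on the replicates. Leaving out TERT-off replicate 1, whose hair shaft keratins were low at 0 h, gave 11 called members, and leaving out TERT-on replicate 1 or 2 gave 2 and 0, while calls over all 12580 genes fell from 2122 higher and 1588 lower to 471 and 103 without TERT-on replicate 1 and to 32 and 6 without TERT-on replicate 2. Without a block for the replicate, 25 members were called (22 higher, 3 lower), and the calls over all 12580 genes rose as well, to 2445 higher and 1849 lower.

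By single time, few members passed the test. At 0 h, before the cohorts should differ, no member was called by limma, 7 had an unadjusted p under 0.05, all lower in TERT-off (background 4.41%), and 0.0397% of all genes were called. At 6 h no member was called, 15 had an unadjusted p under 0.05 (7 higher, 8 lower, background 23.5% in either direction), and 1.74% of all genes were called. At 12 h Uqcrh (0.39, SE 0.08, adjusted p = 0.0436) and Ndufa4 (0.38, SE 0.09, adjusted p = 0.0483) were called higher out of 92, against 1.9% of all genes called higher. At 24 h Ndufa4 alone was called higher (0.40, SE 0.09, adjusted p = 0.0413), against 1.83% of all genes, and 8 members had an unadjusted p under 0.05 (background 22.7%). With the arrays centred on their medians, or with any 1 replicate left out, neither time had a called member. Of all calls at 6 h, 65.8% were higher in TERT-off, and 44.3% were when arrays were centred on their medians; at 12 h the shares were 74.0% and 61.7%.

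The median of the members' differences was -0.02 before injection and -0.003 at 6 h, then 0.16 at 12 h and 0.08 in the last biopsy, against -0.02, 0.04, 0.06 and 0.01 over all genes. At 12 h 66 of 92 members were above 0, among them 26 of 33 in complex I, and 22 had an unadjusted p under 0.05 in this direction (background 18.1%). The difference at 24 h minus that at 6 h called no member, 5 had an unadjusted p under 0.05, all positive (background 5.45%), and 0.215% of all genes were called.

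**Figure D3:**
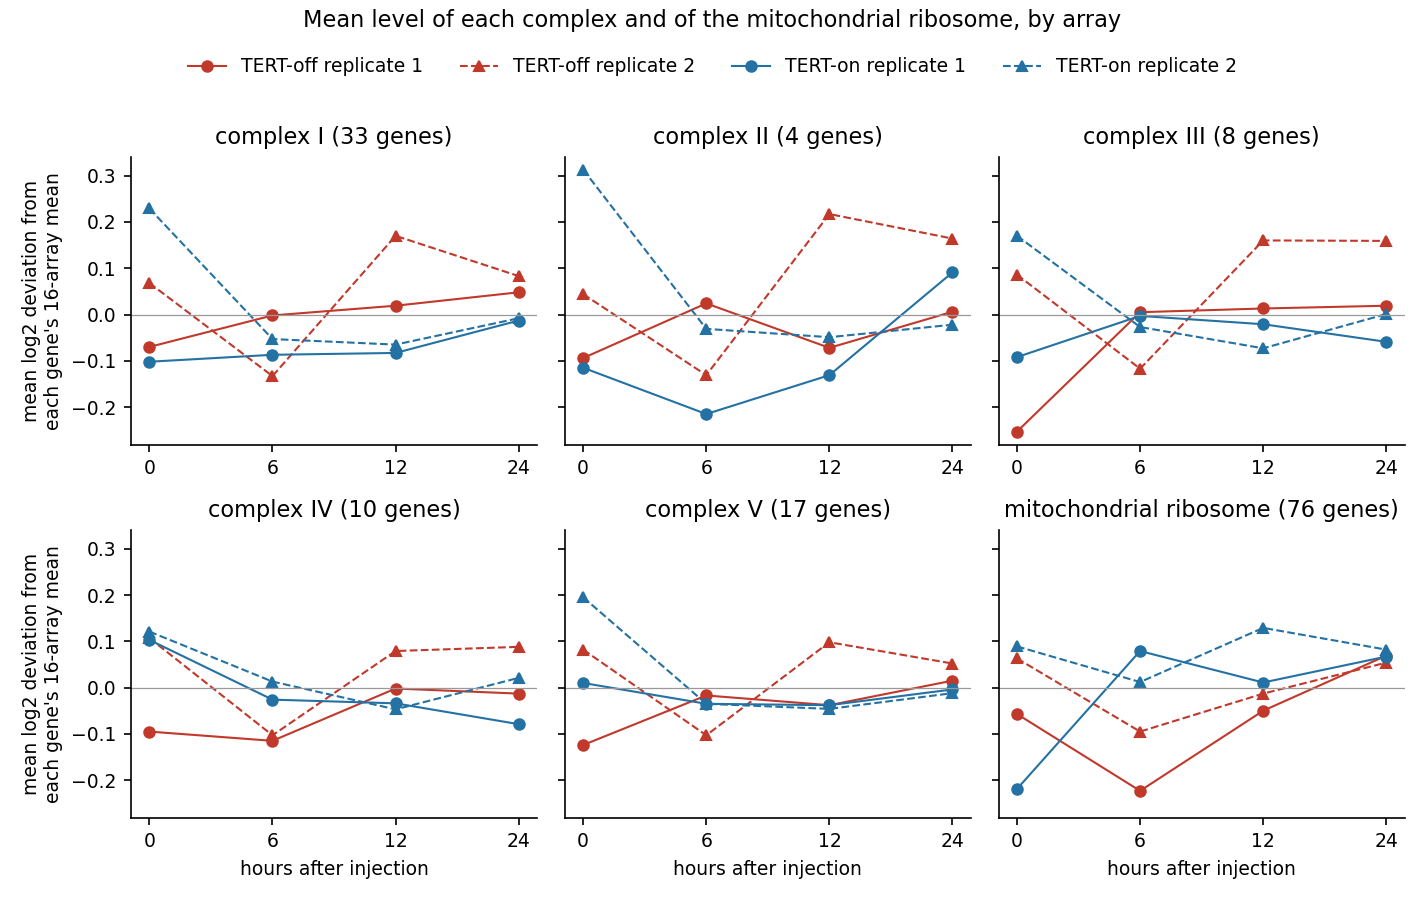
Mean log2 deviation of the genes of each complex, and of the mitochondrial ribosome, from each gene's mean over the 16 arrays, by hours after injection, with a line per replicate. For complex I, TERT-on lies between -0.09 and -0.01 from 6 to 24 h, TERT-off between -0.13 and 0.17, and the highest array is TERT-on replicate 2 at 0 h at 0.23.

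The 14 genes called higher in TERT-off were also compared with 0 h within each cohort, as a description. For the mean of the later arrays minus 0 h, all 14 had a negative value in TERT-on, from -0.38 for Ndufa5 to -0.15 for Ndufa4, and 11 of them an unadjusted p under 0.05. In TERT-off the same genes had values between -0.15 and 0.15, 6 positive and 8 negative, and 1 an unadjusted p under 0.05. No member passed the adjusted threshold in either cohort, where 0.183% of all genes were called in TERT-on and 0.493% in TERT-off. Since these genes were chosen for low TERT-on values at the later times, which enter both contrasts, the direction in TERT-on is partly set by that choice. At 0 h the cohorts differed in them by -0.12 to 0.19, with no unadjusted p under 0.05. For all 15 called members, Cox6a1 included, the mean log2 intensity was 10.74 and 10.92 in TERT-on at 0 h. From 6 h on it was 10.57 to 10.66 in TERT-on and 10.75 to 10.98 in TERT-off.

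Over all 92 members, 71 had a negative change in TERT-on (median -0.13, against -0.05 over all genes) and 48 in TERT-off (median -0.01, against 0.01). The mean log2 deviation of the members in TERT-on replicate 2 was 0.232 at 0 h and then -0.042, -0.074 and -0.019. In TERT-on replicate 1 it was -0.048 at 0 h, on the array with the low Gapdh ratio, and then -0.096, -0.092 and -0.005. The fall in TERT-on thus lay mostly in replicate 2. At an unadjusted p under 0.05, 27 members had a negative and 1 a positive change in TERT-on, against 12.7% and 6.94% of all genes, and in TERT-off 8 had a negative and 4 a positive change (background 17.8% in either direction). The difference between the cohorts in this change called no member by limma, and 12 had an unadjusted p under 0.05, 11 of them positive (background 10.2%). A single gene of 12580 (0.00795%) was called in it. Its median over the members was 0.14, against 0.05 over all genes. TERT-on replicate 2 at 0 h held the highest intensity of 34 of the 92 members and of 4.77% of all probe sets. TERT-off replicate 1 at 0 h held the lowest intensity of 19 members (11.7% of all probe sets) and the highest of 13 (11.5%).

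Isoforms of complex IV that are used in skeletal and heart muscle had the widest differences of all members. Cox6a2, Cox7a1 and Cox8b, the muscle isoforms of subunits VIa, VIIa and VIII, were at 0.83 (adjusted p = 0.0789), 0.60 (adjusted p = 0.217) and 0.80 (adjusted p = 0.0713) over 6 to 24 h, none called, and Cox6a2 and Cox8b had an unadjusted p of 0.0254 and 0.0219. Cox6a2 was 1068, 708 and 617 at 6, 12 and 24 h on TERT-off replicate 1 and 350, 918 and 872 on TERT-off replicate 2. It was 255, 268 and 764 on TERT-on replicate 1 and 549, 298 and 492 on TERT-on replicate 2. At 0 h it was 852 and 447 in TERT-off and 910 and 1487 in TERT-on. The highest value of the series was thus on a TERT-on array before injection, and replicates of 1 cohort at 1 time point stood as far apart as 1068 and 350.

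As a list, skeletal muscle markers moved with these 3 isoforms. Over 6 to 24 h Myh4 was however at -0.48 (adjusted p = 0.593) and Ckm at 0.13 (adjusted p = 0.678), neither called. On TERT-off replicate 1 at 24 h the mean log2 deviation from the 16-array mean was 0.167 for the markers and -0.338 for the isoforms. Of 14 markers 4, Myh2 (1.29), Mylpf (0.90), Tnni2 (0.81) and Tnnt3 (0.73), were called higher in TERT-off over 6 to 24 h, with a median of 0.70 over the list, and the lowest intensity of any of the 14 on any array was 149, for Actn3. The mean log2 intensity of the 14 markers was 10.52 and 10.85 in TERT-off and 11.26 and 11.70 in TERT-on at 0 h. From 6 to 24 h it was 10.32 to 11.28 in TERT-off and 9.81 to 10.95 in TERT-on. Over the 16 arrays, Pearson's r between the marker mean and Cox6a2 was 0.972, Cox8b 0.958 and Cox7a1 0.91, given as a description since these arrays share biopsies, replicates and scaling. For the common isoforms Cox6a1, Cox7a2 and Cox8a, r was -0.19, 0.057 and -0.185 (15 arrays for Cox8a). For the called members Sdhd, Ndufs4, Uqcrh and Ndufa4 it was 0.567, 0.565, 0.495 and 0.435. The part of muscle in the values of those genes was not tested.

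**Figure D4:**
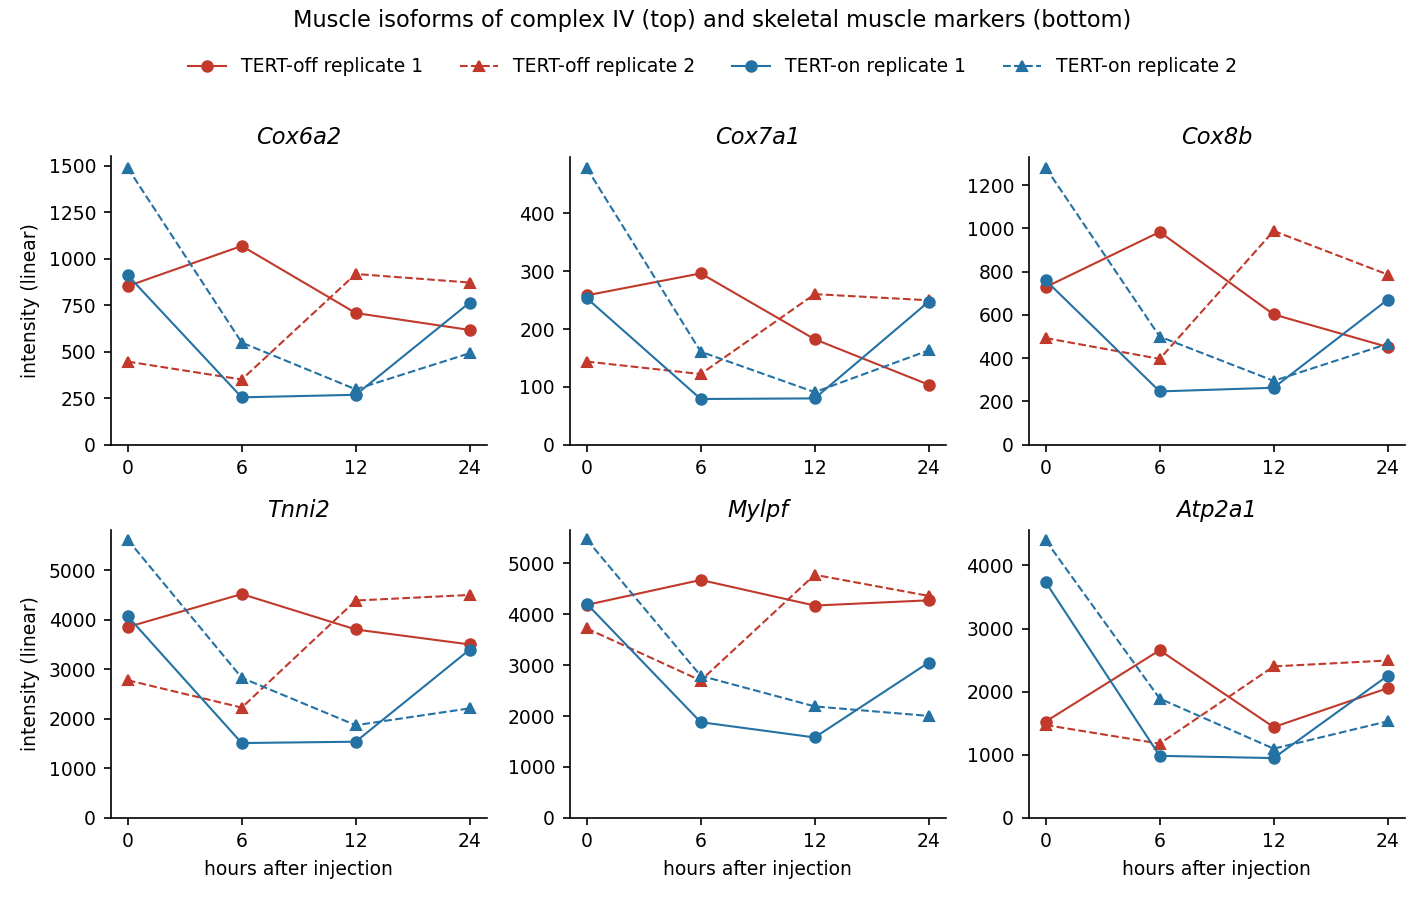
Linear intensity of the muscle isoforms Cox6a2, Cox7a1 and Cox8b (top) and of the skeletal muscle markers Tnni2, Mylpf and Atp2a1 (bottom) on each array, by hours after injection, with a line per replicate. All 6 genes have their highest value on TERT-on replicate 2 at 0 h, and the TERT-on lines fall to their lowest at 6 or 12 h, except that Mylpf in replicate 2 is lowest at 24 h.

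The other tissue-limited isoforms showed no such pattern. Cox4i2, the lung isoform of subunit IV, was between 29.8 and 49.4 on all 16 arrays, close to the filter of 34.4. Cox8c and Cox6b2, isoforms of testis, were between 78.5 and 118 and between 53.3 and 118.5, and none of the 3 was called. Ndufa4l2, a relative of Ndufa4 that hypoxia induces, was 816, 576, 307 and 267 at 0, 6, 12 and 24 h on TERT-off replicate 1, and 348, 280, 212 and 258 on TERT-off replicate 2. In TERT-on it was 175, 212, 346 and 323 on replicate 1 and 497, 325, 334 and 383 on replicate 2. The change from 0 h was -0.83 in TERT-off and 0.10 in TERT-on, neither called, and replicates at 0 h differed by more than 2-fold in both cohorts.

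Assembly factors, which help to build the complexes, and related proteins such as Cox7a2l were not called in either direction (13 tested, with 1 higher and 1 lower at an unadjusted p under 0.05). Their median over 6 to 24 h was 0.09, with Sdhaf4, an assembly factor of complex II, at 0.36 (adjusted p = 0.0600) and Ndufaf6, of complex I, at -0.31 (adjusted p = 0.172) at the ends.

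Other genes of mitochondrial energy metabolism were counted for comparison. Of 46 chain and assembly genes outside the member prefixes, 4 were called higher and 4 lower over 6 to 24 h (medians -0.01 against 0.09 over the members). Coq4, needed for ubiquinone synthesis, was at -0.87 (adjusted p = 0.0090), Uqcc3, an assembly factor of complex III, at 0.56 (adjusted p = 0.00693), and Cox10, which makes the heme of complex IV, at -0.41 (adjusted p = 0.0141). Of 16 tricarboxylic acid cycle and pyruvate dehydrogenase genes, 3 were higher, namely Pdha1 (0.53), Dld (0.45) and Idh3g (0.42), and citrate synthase, Cs, was lower (-0.29). The list median was 0.11. Of 76 genes of the mitochondrial ribosome, 4 were higher (5.26%) and 11 lower (14.5%), with a median of -0.11. Mrpl3 (-0.87), Mrps12 (-0.62) and Mrps25 (-0.57) had the largest called differences among them.

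Among 15 regulators of mitochondrial biogenesis, Ppargc1b, a coactivator of respiratory genes, was higher (0.45, adjusted p = 0.0255) and Polrmt, the mitochondrial RNA polymerase, lower (-0.40, adjusted p = 0.0101). Ppargc1a was at -0.53 (adjusted p = 0.0718), not called. Of 11 glycolysis genes only Pgam1 was called, lower (-0.27, adjusted p = 0.00822), and none of 7 carriers and uncoupling proteins was called (1 higher and 1 lower at an unadjusted p under 0.05). Of the adipocyte markers 3 of 6 were called higher, Retn (1.20), Cidec (0.98) and Adipoq (0.67), with a list median of 0.47, while Lep was at -0.78 (adjusted p = 0.0796), not called. Of 3 brown adipocyte markers none was called, none had an unadjusted p under 0.05, and Cidea was detected at 112 to 694. Among 7 basal keratinocyte markers Col17a1 was called higher (0.56), and among 6 suprabasal markers Krtdap was higher (0.33) and Flg lower (-0.48).

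**Figure D5:**
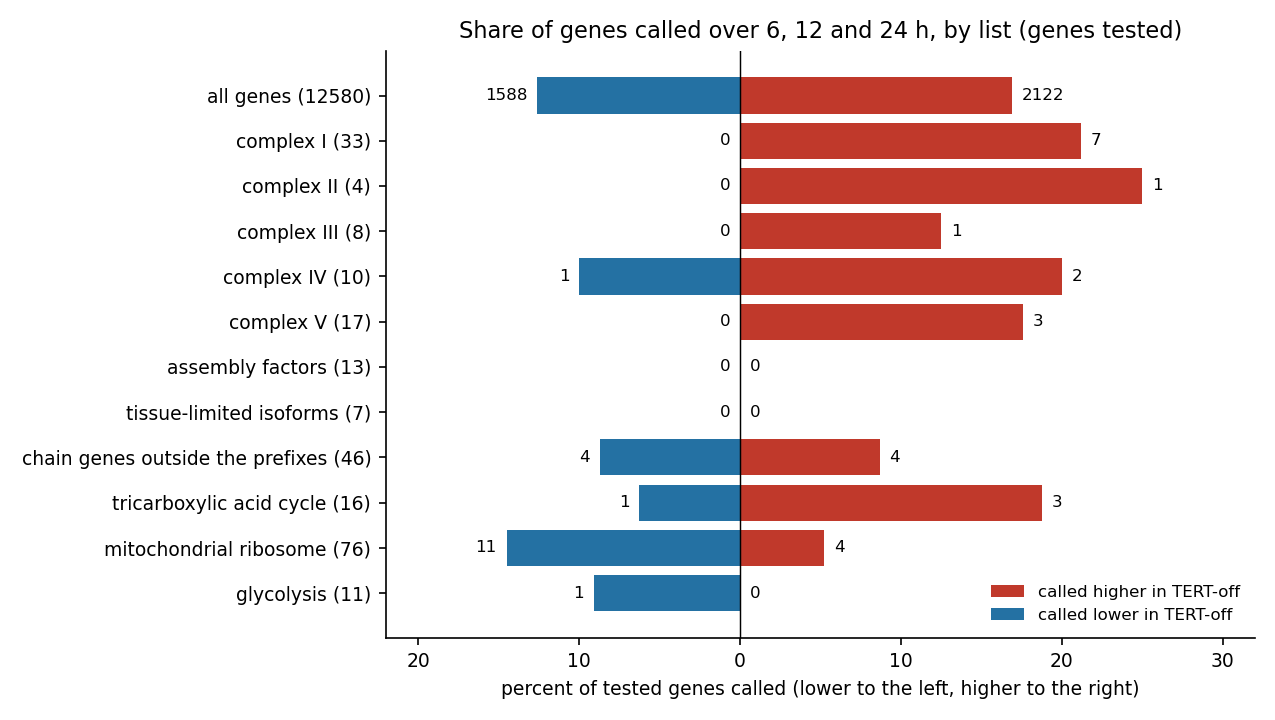
Percent of tested genes called higher (right) or lower (left) in TERT-off over 6, 12 and 24 h for all genes, for each group of members and for other lists, with the number called at the end of each bar and the number tested in brackets. Complexes I, III, IV and V have 12.5% to 21.2% called higher, near the 16.9% of all genes, and no complex but IV has a gene called lower.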

How the data were processed

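Total RNA from dorsal skin was amplified, labelled and hybridized to Affymetrix Mouse Genome arrays. The authors normalized the arrays on invariant probe sets and computed an intensity per probe set with the PM/MM difference model of dChip, and the deposited intensity values are linear, between 1 and 16736; how dChip treats low and empty values decides which genes pass a filter. Depth does not apply to arrays, and the 16 arrays limit the precision. Cohorts, times and replicates come from the sample labels; the same replicate number within a cohort was taken as 1 mouse, since the design describes serial biopsies of the same mice.

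From these values, the lowest 20% were raised to a floor of 7.71, log2 was taken, and 25563 probe sets above 34.4, the table median, on at least 2 arrays and with a value in every group were tested. Empty cells (1425 in the table, 4 among the members: Atp5g2, Cox4i1 and Cox8a on TERT-on replicate 1 and Uqcrfs1 on TERT-off replicate 1, all at 0 h) were left out of the fit and of list means. limma 3.58.1 in R 4.3.3 fitted 8 group means with the replicate of a cohort as a random block (duplicateCorrelation, statmod 1.5.0, consensus correlation 0.0728) and eBayes with trend. A run on simulated data had independent noise and larger planted differences than those of the called members, so it does not check calls of this size. The methods' significance analysis of microarrays was not run. Symbols came from the platform annotation through RefSeq gene identifiers: 34958 probe sets have 1 symbol, 932 several and 9211 none. The members and lists were chosen with earlier results of these data known. Named were the 12 largest differences each way among called members, the 2 largest per complex, core subunits, paired isoforms, members called in other contrasts (up to 5 each), and for other lists the 3 largest called differences or more where a count was 5 or fewer. Ndufa8, Cox6c, Atp5l, Sdhaf4, Ndufaf6, Ppargc1a, Myh4 and Ckm were named after their values were seen. Python 3.11.15 with pandas 2.3.3 and matplotlib 3.10.9 made the summaries and plots.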

Additional observations from a re-analysis of the deposited data

How the results depend on the processing

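Over 6 to 24 h the count of called members, 15, was 7 without the intensity trend, 25 without the block for the mouse, 24 over all member probe sets, and 30 with a replicate block, and it ranged from 0 to 19 when a replicate, or the 0 h array of TERT-on replicate 1, was left out. It was within 1.5 times of 15 under the other alternatives. The calls over all 12580 genes, 2122 higher and 1588 lower, changed as well. They were 2051 and 1489 without the intensity trend, 2445 and 1849 without the block for the mouse, and 2798 and 2198 with the replicate block. The replicate block treats the number as shared between cohorts. Same-numbered samples of the 2 cohorts deviated with r of -0.123 to 0.109 at the same time and -0.329 to 0.546 at other times. Within TERT-on r was -0.147 to 0.331, and within TERT-off 0.142 to 0.652. These values do not settle which samples share a mouse. All 15 called members remained called with the block, 10 of 15 after median centring and 12 of 15 after quantile normalization. The median of 0.089 was 0.058 after centring and 0.069 to 0.099 without a replicate.

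At 12 h the count of 2 was 7 with the replicate block, 1 with the mean of all probe sets of a gene, and 0 under centring, quantile normalization, no filter, no trend, and without TERT-on replicate 1 at 0 h. At 24 h the count of 1 was 0 under the same settings, the mean of probe sets and the replicate block apart. Without a replicate both counts were 0, the count at 0 h was 0 to 2 and that at 6 h 0 to 1. The contrasts within cohorts, their difference and 24 h minus 6 h kept a count of 0 under every alternative run. With the replicate block, calls at 12 h over all 12580 genes rose from 239 higher and 84 lower to 640 and 320. The fit with the mouse as a fixed block gives only contrasts within mice. Signs turned for Cox7a2 (-0.002, centred) and, over the values without a replicate, for Cox4i1 (-0.05 to 0.027, positive without TERT-off replicate 1), Cox8c (-0.107 to 0.066, positive without TERT-off replicate 2 or TERT-on replicate 1) and Ndufa4l2 (-0.344 to 0.196, positive without replicate 2 of either cohort). The cause was not tested. Where a replicate is left out, the lone sample of a group is assumed to vary like the others.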
